A study of Mus musculus with 12 samples.

Results

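Plasma cells that lacked a reporter mark late after marking were compared with plasma cells that carried the mark early. The comparison sets the 3 libraries of unmarked cells (human CD4-) of day 270 against the 3 libraries of marked cells (human CD4+) of day 60, which is 6 of the 12 libraries in the study, over the 12704 expressed genes of a table of 14219. All libraries came from bone marrow plasma cells of C57BL/6 mice of the genotype BLTcre.mcl1fl/+, and all mice had received tamoxifen, which turned on a human CD4 reporter. The days count from that treatment: marked cells of day 60 carried a reporter switched on 60 days earlier, and unmarked cells of day 270 lacked it. The labels state no promoter for the Cre, no age, no number of animals per library, no fraction of cells marked and no gates. Every group comes from treated mice with the floxed mcl1 allele, so the part of either in a level is not measured here. Whether that allele was recombined in marked or unmarked cells was not measured, so its state may differ with the mark. The table holds mouse genes, so the reporter itself gave no check of the labels. Specimen numbers in the labels put different specimens into the 2 groups.

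Plasma cells are the end stage of B cell differentiation and secrete antibody. On the way there from a dividing plasmablast, a B cell leaves the cell cycle, lowers antigen presentation by MHC class II and parts of the B cell receptor, and raises Prdm1, Irf4 and Xbp1, which drive secretion. Bone marrow houses both cells that have just arrived and cells that have stayed for long, and the latter depend on survival signals and on Mcl1, an inhibitor of apoptosis. The comparison asks which differences of the unmarked pool from marked cells are found again when the unmarked pool is sampled late.

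Between the groups compared, day and marking changed together. Each log2 fold change is therefore the sum of the difference between unmarked and marked cells at day 60 and the difference between days within unmarked cells. Values of the day 60 unmarked and day 270 marked libraries are given beside many of the results for that reason, though not beside all. The share of either component in a result was not tested. Levels are CPM, reads per 1000000 reads on the genes of the table, and a fold change is on the scale log2(CPM + 0.5), which understates the change of low genes. The 6 libraries held 8405847 to 13425343 reads and 12625 to 13506 genes with a read. Jchain, the joining chain of polymeric antibody, took 16.35% to 21.57% of the reads of the day 270 unmarked libraries, and 31.27%, 20.28% and 21.45% of those of the day 60 marked ones. Features resembling ribosomal RNA took 5.55% of day 60 marked library 2 and 0.25% to 0.73% of the other 5. Replicate 1 of each group has a library number from 5 to 8, while the others are numbered 13 and 14 in the unmarked and 25 and 27 in the marked group, so that library number and group cannot be told apart outside replicate 1. Nothing in the labels says that the libraries are from separate animals, and p-values measure the spread between libraries. In bulk RNA, fewer cells of a type and less RNA per cell cannot be told apart.

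Among the genes called higher in late unmarked than early marked cells were 3 MHC class II chains (H2-Aa, H2-Ab1, H2-Eb1), the B cell receptor chain Cd79a, the cell division genes Top2a, Cdc20, Rrm2 and Ccnd2, the lymphocyte receptor Slamf6, and the fatty acid desaturases Scd1 and Scd2. Fcer1g was the 1 gene called lower. By limma with Benjamini-Hochberg adjustment, 29 of 12704 genes were called at an adjusted p under 0.05, 28 higher and 1 lower in day 270 unmarked cells. Those are 0.228% of the genes tested, 0.22% higher and 0.00787% lower. At an unadjusted p under 0.05 there were 1294 genes higher (10.2%) and 81 lower (0.638%). Of the 28, 2 are unnamed gene models. In all 29, the 3 libraries of 1 group lay above the 3 of the other. Over all genes tested, the 3 unmarked libraries lay above the marked ones in 2283 genes (18%) and below them in 385 (3.03%). The log2 fold change was positive in 9306 genes and negative in 3398. The median log2 fold change of all genes was 0.26, and 0.03 after TMM scaling, which takes the bulk of genes as level. TMM moved the median by -0.23, and 28 genes were called under it, 23 higher and 5 lower, of which 24 were among the 29. Log2 fold changes below are to be read against that median of 0.26, and counts within lists against the shares over all genes given here.

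The number called moved with the libraries in the fit, which also changed the genes that passed the filter. With only the 6 compared libraries in the fit, 130 genes were called (121 higher, 9 lower), and with marked libraries 2 and 3 of day 270 left out, which had the fewest genes with a read, 221 (213 higher, 8 lower). Both larger sets held all 29. Leaving out day 270 unmarked library 1, 2 or 3 left 10, 11 or 14 calls, and leaving out day 60 marked library 1, 2 or 3 left 20, 15 or 35. Among the 4 libraries outside replicate 1, 1 gene was called, Scd1. None of the 27 named called genes changed direction under any of the 24 alternatives.

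Of the 27 named called genes, 9 kept the call whichever of the 6 libraries was left out: Scd1, Scd2, H2-Aa, H2-Ab1, H2-Eb1, Ccnd2, Napsa, Slamf6 and Top2a. Another 5 lost it each time, Fcmr, Spn, Mgat3, Coro1a and Camk2d, with adjusted p of 0.0526 to 0.293. Cd79a and Cdc20 lost it without unmarked library 1 or 2 (adjusted p up to 0.0845 and 0.0955), and Rrm2 without unmarked library 1 or 3 or marked library 1 (up to 0.161). Fam3c, Ltb, Vim, Atp2a3 and Fcer1g were called in 1 of the 6 such fits, with adjusted p up to 0.123, 0.242, 0.252, 0.242 and 0.118. Atp1b1, Cd180, Itgb7, Hepacam2 and Ets1 were called in 2, with adjusted p up to 0.0913, 0.288, 0.154, 0.185 and 0.252. Of these 10 genes, all but Cd180 and Ets1 lost the call whichever day 270 unmarked library was left out. Fits that leave out a library have fewer samples. By method, limma-voom did not call 13 of the 27: Top2a (adjusted p 0.0965), Cdc20 (0.135), Rrm2 (0.0501), Slamf6 (0.0587), Atp1b1 (0.0647), Fam3c, Ltb, Cd180, Ets1, Mgat3, Hepacam2, Coro1a and Camk2d. edgeR did not call 7 (Ltb, Itgb7, Cd180, Hepacam2, Coro1a, Mgat3 and Camk2d), TMM 5 (the same without Ltb and Itgb7), and values adjusted for exonic length 7 (those 5 with Ets1 and Atp2a3). A pseudocount of 0.1 ended 8 calls: Fcmr, Spn, Vim, Ltb, Fam3c, Cd180, Mgat3 and Camk2d.

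**Figure D1:**
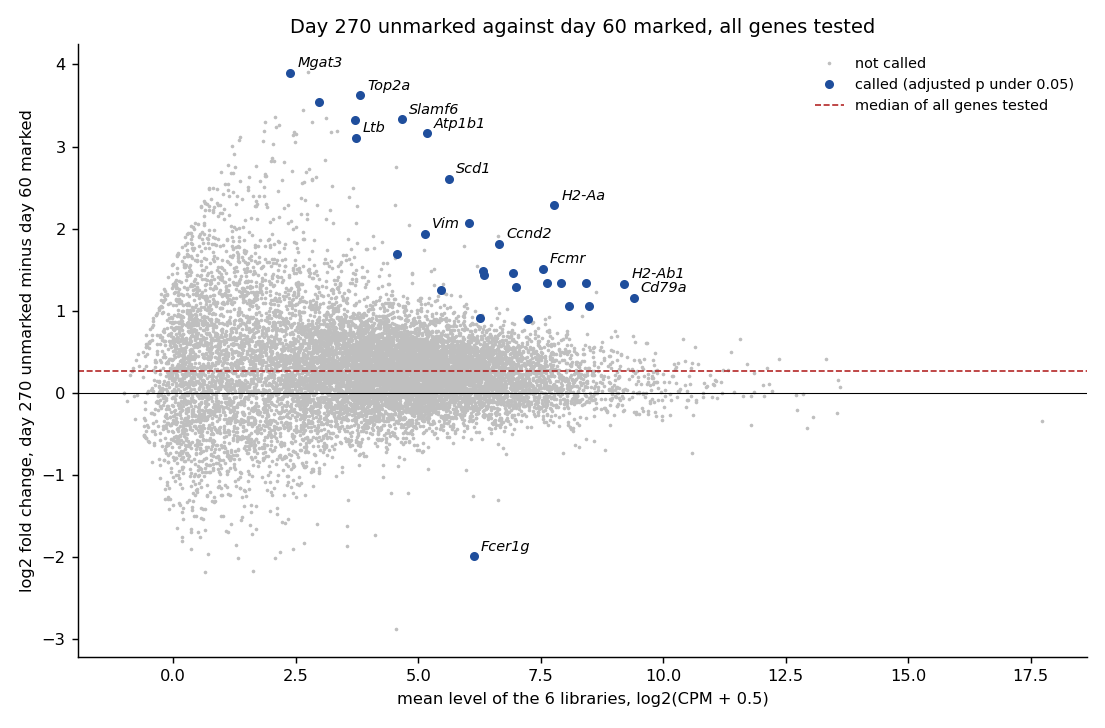
Each point is a gene: the x axis is the mean level of the 6 libraries as log2(CPM + 0.5), the y axis the log2 fold change of day 270 unmarked over day 60 marked cells. The 29 called genes are blue, 28 above and 1 below the line at 0, and the dashed line is the median of all genes, 0.26.

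Genes of MHC class II, the family that presents peptides to T cells, were among the most stable calls. The values are RNA levels, and neither I-A nor I-E protein was measured. The alpha chain of I-A, H2-Aa (ENSMUSG00000036594, GRCm38 chromosome 17, 34282744 to 34287823), stood at 389.6, 287 and 404 CPM in the day 270 unmarked libraries and at 112, 62.6 and 54.8 in the day 60 marked ones. The groups did not overlap, and the means differed 4.70-fold (360.1 ± 63.8 against 76.6 ± 31.2 CPM, mean ± SD, n = 3), a log2 fold change of 2.28 ± 0.32 (SE; adjusted p 0.00237, limma). Its partner H2-Ab1 (ENSMUSG00000073421, GRCm38 chromosome 17, 34257689 to 34269419), the beta chain, was at 902, 729.7 and 898 CPM against 414, 287 and 313, a log2 fold change of 1.33 ± 0.18 (adjusted p 0.00232). For H2-Eb1 (ENSMUSG00000060586, GRCm38 chromosome 17, 34305867 to 34316674), the beta chain of I-E, libraries were at 520.5, 399 and 556 against 219.9, 184 and 174 CPM (1.34 ± 0.18, adjusted p 0.00207). Day 60 unmarked libraries had 465, 458 and 435 CPM of H2-Aa and 1061, 1111 and 1161 of H2-Ab1, above the late unmarked libraries, and day 270 marked libraries had 86.1, 47.8 and 157 CPM of H2-Aa and 326, 254 and 389 of H2-Ab1. H2-Eb1 had 534, 544 and 528 and 158, 126 and 187 CPM in these groups. All 3 chains were thus high in both unmarked groups and low in both marked groups. They were called under every alternative except the one with 2 libraries a group outside replicate 1, where their adjusted p was 0.141 to 0.158.

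Of 11 MHC class II genes tested, 3 were called higher and 0 lower, and 6 lay above in all libraries, beside 18% of all genes. The median log2 fold change was 1.19 beside 0.26 for all genes (1.33 with Ciita, which had 0 reads in the marked group, at its lower bound). H2-Ob, which with H2-Oa restrains peptide loading, had 64.1, 56.97 and 71.1 CPM against 30.1, 27.4 and 19.1 (log2 fold change 1.33) and did not pass (adjusted p 0.339). Cd74, the invariant chain that escorts class II chains, was 11759 against 8826 CPM (0.41 ± 0.22, adjusted p 0.502). H2-DMb1, a chain of the peptide exchange factor, had a log2 fold change of -0.21. The difference was therefore not of 1 size over the list. Genes of MHC class I and its separate peptide loading pathway had 0 of 21 called and a median of 0.18, which was -0.06 under TMM. At an unadjusted p under 0.05, 2 were higher and 0 lower, beside 10.2% and 0.638% of all genes.

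The promoters of 2 of the called class II genes are shown because class II genes share promoter boxes, an X box and a CCAAT-type Y box, that are read by 1 regulatory complex. The sequences are the 250 bases before the start, from RefSeq (GRCm38.p6), 5′ to 3′ on the gene's strand. Capitals mark matches on either strand to CCAAT and to a form of the X box.
H2-Aa, minus strand, chr17:34287824-34288073: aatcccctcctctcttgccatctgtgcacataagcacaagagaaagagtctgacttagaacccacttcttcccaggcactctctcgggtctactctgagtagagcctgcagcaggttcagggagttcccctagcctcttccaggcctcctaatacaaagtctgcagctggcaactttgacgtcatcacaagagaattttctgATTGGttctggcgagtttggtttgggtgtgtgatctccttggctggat
H2-Eb1, plus strand, chr17:34305617-34305866: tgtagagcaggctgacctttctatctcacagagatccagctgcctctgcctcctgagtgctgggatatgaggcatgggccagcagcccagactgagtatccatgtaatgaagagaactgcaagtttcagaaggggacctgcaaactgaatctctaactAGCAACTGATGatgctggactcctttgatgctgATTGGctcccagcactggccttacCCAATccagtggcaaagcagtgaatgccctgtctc
H2-Aa held 1 match to CCAAT, its first base 48 bases before the start. H2-Eb1 held the X box form at 92 bases and CCAAT at 59 and 35 bases before the start. Of the MHC class II list, 8 genes had 9 promoters in the table, of which 8 (88.9%) held CCAAT and 2 (22.2%) the X box form. Among 11359 promoters of 8915 tested genes, 35.4% held CCAAT and 0.0528% the X box form. A match is a description of letters and not of binding.

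Of the 2 signalling chains of the B cell receptor, Cd79a was called higher in late unmarked cells and Cd79b was not. Cd79a (ENSMUSG00000003379, GRCm38 chromosome 7, 24897381 to 24902197), was at 983, 953 and 852 CPM against 370.2, 431 and 449, a log2 fold change of 1.16 ± 0.18 (adjusted p 0.00593). Each unmarked library lay above each marked one, at either day: day 60 unmarked libraries had 946, 758 and 757 CPM and day 270 marked ones 369.99, 243 and 402. Its partner Cd79b differed little, 749.8 against 683 CPM (log2 fold change 0.14, -0.11 under TMM, adjusted p 0.788). Fcmr, the receptor for the Fc part of IgM, was at 281, 335 and 213 against 104, 80.5 and 103 CPM (1.51 ± 0.30, adjusted p 0.0402). Cd180, a Toll-like receptor homolog of B cells, had 111, 156 and 83.1 against 63.2, 28.1 and 39.9 CPM (1.44 ± 0.28, adjusted p 0.0326, and 0.0694 under TMM). Of 24 B cell genes, 2 were called higher and 0 lower, 9 lay above in all libraries (18% of all genes did), and the median was 0.51. Vpreb3, a B lineage chaperone of the receptor, had the largest log2 fold change of the list, 2.28, with 33.5, 29.7 and 47.97 against 4.29, 13.8 and 5.81 CPM, and did not pass (adjusted p 0.0786). Napsa, an aspartic protease, had 180.2, 153 and 208 CPM against 64.2, 55.8 and 75.3 (1.46 ± 0.21, adjusted p 0.00237).

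Among the genes called higher were Top2a, Cdc20 and Rrm2 of the mitosis and replication lists and the cyclin Ccnd2, of which Top2a and Cdc20 had large fold changes at low levels. The first 3 were not called by limma-voom. Top2a (ENSMUSG00000020914, GRCm38 chromosome 11, 98992943 to 99024189), which untangles DNA before chromosomes separate, was at 26.5, 24.7 and 25.5 CPM in late unmarked and 1.78, 1.31 and 1.79 in early marked libraries. The means differed 15.7-fold, a log2 fold change of 3.62 ± 0.54 (adjusted p 0.00327), on 887 and 53 reads. Cdc20 (ENSMUSG00000006398, GRCm38 chromosome 4, 118432901 to 118437352), an activator of the anaphase-promoting complex, was at 18.04, 12.03 and 11.4 against 0.566, 1.90 and 0.179 CPM (3.54 ± 0.56, adjusted p 0.00593). Rrm2, a subunit of ribonucleotide reductase that supplies DNA precursors, was at 44.9, 29.3 and 33.00 against 8.82, 12.7 and 10.5 (1.69 ± 0.28, adjusted p 0.0102). Day 60 unmarked cells stood at the level of the late ones, with 21.8, 28.3 and 32.0 CPM of Top2a and 40.1, 37.3 and 37.6 of Rrm2. Marked cells of day 270 had 1.88, 3.89 and 14.6 CPM of Top2a, low in libraries 1 and 2 and higher in library 3. Ccnd2, the G1 cyclin D2, was at 140.02, 148 and 177 against 31.5, 43.5 and 59.98 CPM (1.82 ± 0.21, adjusted p 0.00142). It had 116, 110 and 102 CPM in day 60 unmarked and 60.7, 69.4 and 71.4 in day 270 marked libraries, the latter above all early marked ones.

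All 35 mitosis genes tested had a positive log2 fold change, beside 9306 of 12704 over all genes. Of the 35, 28 lay above in all libraries (18% of all genes did), but 2 were called. The median was 2.30 (2.60 with 4 genes without a read in marked cells at their bounds, and 2.17 under TMM). Ccna2, cyclin A2, had 18.2, 7.41 and 10.6 CPM against 0, 0 and 1.43 (3.91 ± 0.81) and just missed the threshold (adjusted p 0.0532), as did the spindle gene Tpx2, with 5.62, 5.97 and 3.58 against 0, 0.714 and 0.358 CPM (adjusted p 0.0529). Cdca8, a chromosomal passenger protein, had 123 reads in the late unmarked and 0 in the early marked libraries, so that it was at least 37.8-fold higher against a floor of 3 counts over the group. Mki67, the gene of Ki-67, overlapped, with 23.5, 68.9 and 23.4 against 8.09, 23.2 and 24.4 CPM (adjusted p 0.436). Replication genes differed less: of 31, 1 was called higher (Rrm2) and 0 lower, 11 lay above in all libraries, and the median was 0.66. Mcm5, of the replicative helicase, had 20.99, 19.6 and 24.7 against 8.17, 12.7 and 3.84 CPM (log2 fold change 1.48, adjusted p 0.13), and Pcna, the sliding clamp, 59.3 against 42.4 (0.47). Plasma cells and other dividing cells were not separated by these values.

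Promoters of Top2a and Cdc20 are shown because genes of G2 and mitosis commonly carry CCAAT boxes and a cell cycle homology element, TTTGAA. Capitals mark matches on either strand to CCAAT and TTTGAA in the 250 bases before the start (RefSeq, GRCm38.p6, 5′ to 3′ on the gene's strand, with 0 overlaps between the motifs).
Top2a, minus strand, chr11:99024190-99024439: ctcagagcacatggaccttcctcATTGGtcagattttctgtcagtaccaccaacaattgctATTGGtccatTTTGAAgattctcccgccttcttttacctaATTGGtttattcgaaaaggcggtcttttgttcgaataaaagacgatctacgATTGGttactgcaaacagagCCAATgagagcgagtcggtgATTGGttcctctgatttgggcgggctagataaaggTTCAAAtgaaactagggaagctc
Cdc20, minus strand, chr4:118437344-118437593: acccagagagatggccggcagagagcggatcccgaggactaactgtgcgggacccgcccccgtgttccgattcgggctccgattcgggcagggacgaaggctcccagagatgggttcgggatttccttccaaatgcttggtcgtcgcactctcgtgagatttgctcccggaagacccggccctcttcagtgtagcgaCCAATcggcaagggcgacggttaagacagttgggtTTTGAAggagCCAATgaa
Top2a held 6 matches to CCAAT and 2 to TTTGAA, the latter at 179 and 23 bases before the start. Cdc20 held CCAAT at 53 and 8 bases and TTTGAA at 18 bases before the start. That start is from RefSeq and lies inside the gene as positioned above from GENCODE M21. The CCAAT at 8 bases is therefore within the gene by the latter. In the mitosis list, 27 genes had 28 promoters, of which 23 (82.1%) held CCAAT and 9 (32.1%) TTTGAA, beside 35.4% and 10.8% of promoters of all tested genes. In the replication list, 8 of 30 promoters of 25 genes (26.7%) held GCGGGAA, a form of the E2F site, beside 6.81% of all. Promoters of the mitosis list held 0 matches to GCGGGAA.

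**Figure D2:**
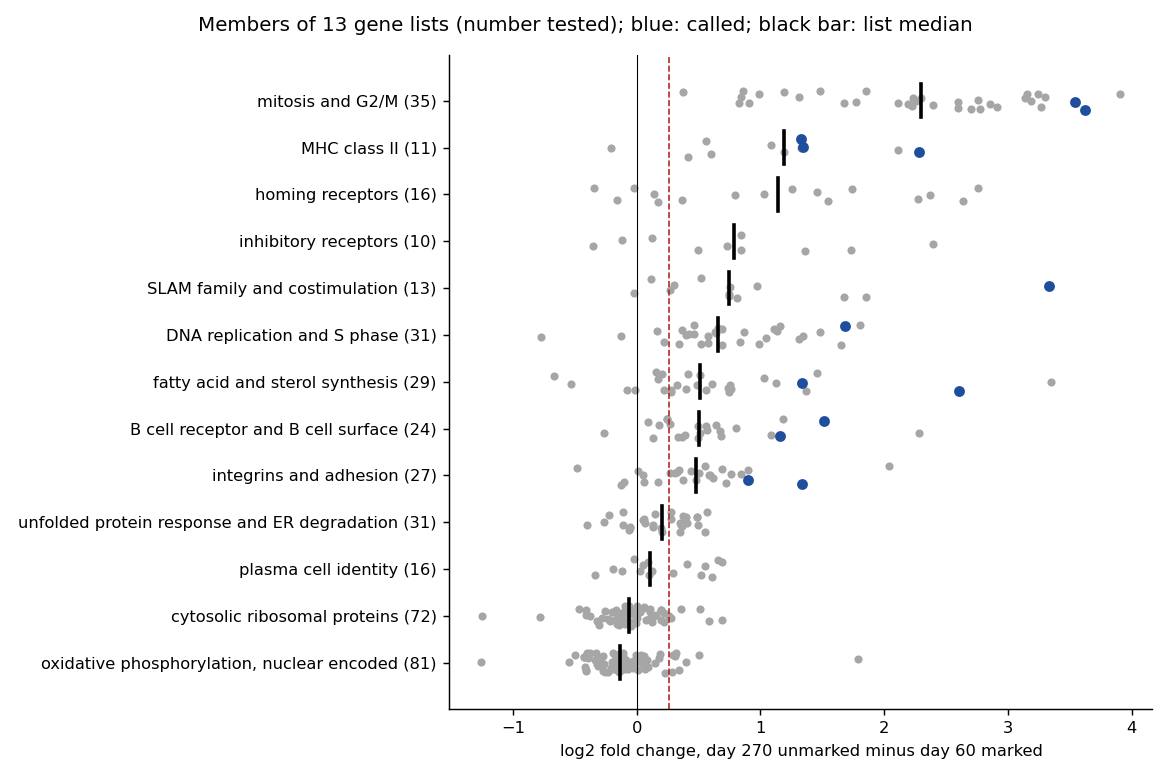
Points are the log2 fold changes of the members tested (number in brackets) of 13 gene lists, day 270 unmarked minus day 60 marked. Blue points were called, black bars are list medians and the dashed line is the median of all genes, 0.26: the mitosis list has a median of 2.30 and oxidative phosphorylation -0.14.

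Of lymphocyte surface and signalling genes, Slamf6, Ltb and Spn were called higher in late unmarked cells, while Slamf7 and Cd2 were not called. Slamf6 (ENSMUSG00000015314, GRCm38 chromosome 1, 171917515 to 171953170), a self-binding receptor of the SLAM family, was at 49.4, 54.8 and 30.8 CPM against 7.28, 4.88 and 1.52, 9.87-fold between means and 3.33 ± 0.48 on the log2 scale (adjusted p 0.00237). Day 60 unmarked libraries had 59.2, 40.01 and 30.4 CPM and day 270 marked ones 5.96, 12.5 and 16.3, so that unmarked libraries again lay above marked ones at both days. Ltb, lymphotoxin beta, which organises lymphoid tissue, had 16.8, 28.7 and 22.3 against 5.34, 2.26 and 0.626 CPM (3.11 ± 0.58, adjusted p 0.0284). Day 60 unmarked libraries had 38.6, 17.9 and 30.3 CPM of Ltb. In day 270 marked libraries it was at 8.47, 4.97 and 22.2, so that library 3 reached the unmarked level. Spn, the sialophorin CD43, had 126, 124 and 99.96 against 33.3, 52.9 and 39.6 CPM (1.48 ± 0.29, adjusted p 0.0326). Levels of Spn were 103, 70.7 and 88.2 CPM in day 60 unmarked and 39.6, 15.7 and 31.7 in day 270 marked libraries. T and NK cell markers, of which 10 were found and 8 tested, summed to 30.6 to 36.9 CPM in late unmarked and 6.08 to 14.6 in early marked libraries. The sums are over the 10 markers, and the part of such cells in these values was not tested. Of 13 genes for SLAM receptors and costimulation, 1 was called higher and 0 lower, with a median of 0.75. Slamf7, the SLAM receptor typical of plasma cells, stood at 764 against 781 CPM (log2 fold change -0.02). Cd2, an adhesion receptor higher in unmarked than marked cells at day 60 (2.73 ± 0.53, adjusted p 0.0395), overlapped here, with 24.9, 7.79 and 18.4 against 9.30, 3.33 and 2.77 CPM (adjusted p 0.222).

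Of the integrin and adhesion genes, 2 were called higher, among them Itgb7, while no homing receptor gene was called. Itgb7, the integrin beta 7 chain, which with Itga4 binds gut addressin, was at 301, 271 and 270.01 CPM against 133, 85.2 and 120.4 (1.33 ± 0.24, adjusted p 0.019). Day 60 unmarked libraries had 251, 165 and 137 CPM of Itgb7 and day 270 marked ones 218, 134 and 231, which overlapped each other. Itga4 had 229, 235 and 152 against 87.9, 123 and 131 CPM (log2 fold change 0.84, adjusted p 0.149). Of 27 integrin and adhesion genes, 2 were called higher and 0 lower. In all libraries, 14 lay above and 1, Itgav, below, beside 18% and 3.03% of all genes. Among 16 homing receptor genes, 0 were called. With an unadjusted p under 0.05, 7 were higher and 0 lower, beside 10.2% and 0.638% of all genes. Of the 16, 10 lay above in all libraries (18% of all genes did), and the median was 1.14. The gut homing receptor Ccr9 had 35.4, 37.4 and 46.3 against 7.44, 2.26 and 8.94 CPM (log2 fold change 2.76, adjusted p 0.067), Cxcr3, a receptor for interferon-induced chemokines, 32.3, 9.53 and 24.7 against 3.56, 3.33 and 4.20 (2.27, adjusted p 0.175), and the mucosal receptor Ccr10 124, 64.95 and 141 against 51.7, 25.2 and 33.97 (1.54, adjusted p 0.086). Cxcr4, the receptor that holds plasma cells in bone marrow, overlapped, with 305, 273 and 320.4 against 314, 290.4 and 309 CPM, a log2 fold change of -0.02 ± 0.20 (95% interval -0.45 to 0.40). The call of Coro1a, an actin regulator, with 208, 178 and 204 against 106, 105 and 104 CPM (adjusted p 0.0284), was lost under TMM (adjusted p 0.17). Vim, the filament protein vimentin, had 69.9, 42.7 and 52.1 against 8.65, 21.7 and 13.6 CPM (1.94 ± 0.37, adjusted p 0.0284).

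Inhibitory receptors gave 0 calls of 10, with a median of 0.78 beside 0.26 for all genes. At an unadjusted p under 0.05, 4 were higher and 0 lower, beside 10.2% and 0.638% of all genes. Tigit, which binds the poliovirus receptor, had 63.9, 41.4 and 52.2 against 10.8, 25.1 and 12.9 CPM (1.73 ± 0.43, adjusted p 0.105), without overlap. Ctla4 had 19.7, 29.1 and 17.4 against 5.99, 8.92 and 9.83 CPM (log2 fold change 1.36, adjusted p 0.175), while Btla had 168 against 213 (-0.36). Of 21 ion transport and NADPH oxidase genes, 1 was called higher and 0 lower, beside 0.22% and 0.00787% of all genes. This was Atp1b1, the beta 1 chain of the sodium pump, at 77.7, 56.2 and 59.96 against 7.85, 6.42 and 5.99 CPM (3.16 ± 0.51, adjusted p 0.00771). Day 60 unmarked libraries had 79.2, 33.9 and 18.2 CPM of Atp1b1 and day 270 marked ones 15.7, 4.16 and 3.46. Fam3c, a secreted protein, had 20.8, 18.8 and 30.2 against 1.78, 1.67 and 2.06 CPM (3.32 ± 0.58, adjusted p 0.0179). Mgat3, which adds a bisecting sugar to N-glycans, had 10.6, 6.74 and 10.5 against 0.566, 0 and 0 CPM (3.90 ± 0.77, adjusted p 0.0392) on 7 marked reads, and 0.0571 under TMM. Its levels were 9.39, 3.09 and 3.92 CPM in day 60 unmarked and 3.51, 0 and 0 in day 270 marked libraries. Ets1, a transcription factor that restrains plasma cell differentiation, had 71.2, 68.7 and 46.4 against 21.7, 26.8 and 28.2 CPM (1.25 ± 0.23, adjusted p 0.0284). Its levels in day 60 unmarked libraries, 48.6, 42.8 and 48.1 CPM, overlapped those in day 270 marked ones, 36.4, 40.7 and 48.3.

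For the called genes Scd1, Scd2 and Hepacam2, marked cells of day 270 also lay above marked cells of day 60. The same held in all libraries for Top2a, Cdc20, Rrm2, Ccnd2, Ets1, Itgb7, Atp2a3 and Camk2d, by a small margin in some. Scd1 (ENSMUSG00000037071, GRCm38 chromosome 19, 44394455 to 44407879), a desaturase that makes monounsaturated fatty acids, was at 84.1, 83.5 and 84.8 CPM in late unmarked and 19.8, 12.3 and 9.83 in early marked libraries. The means differed 6.02-fold (2.61 ± 0.32, adjusted p 0.0015), and it was called under all 24 alternatives. Day 60 unmarked libraries had 62.9, 26.4 and 26.3 CPM and day 270 marked ones 57.6, 42.96 and 63.1, so that every day 270 library lay above every day 60 marked one. Its paralog Scd2 had 317, 384 and 337 against 133, 114 and 166 CPM (1.34 ± 0.19, adjusted p 0.00237), with 226, 184 and 192 in day 60 unmarked and 189.98, 249.95 and 311 in day 270 marked cells; how reads shared by paralogs were counted is not given in the sources used here. Hepacam2, an adhesion molecule of the immunoglobulin superfamily, had 167, 217 and 159.6 against 85.1, 62.6 and 74.1 CPM (1.29 ± 0.23, adjusted p 0.0179, and 0.0982 under TMM). In day 60 unmarked cells it was at 101, 77.6 and 70.6 and in day 270 marked cells at 140.4, 256 and 232 CPM, so that both day 270 groups lay above both day 60 groups. The calcium pump Atp2a3 had 461, 523 and 452 against 212, 199.9 and 287 CPM (1.05 ± 0.20, adjusted p 0.0284) and the calcium-dependent kinase Camk2d 102, 116 and 81.9 against 52.4, 51.04 and 53.2 (0.91 ± 0.19, adjusted p 0.0496, and 0.183 under TMM). Atp2a3 had 383, 277 and 299 CPM in day 60 unmarked and 292, 294 and 465 in day 270 marked libraries, which overlapped each other. Camk2d had 80.04, 65.9 and 69.6 and 84.9, 90.3 and 78.3, which overlapped as well.

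Of 29 fatty acid and sterol genes, 2 were called higher (the desaturases) and 0 lower. In all libraries 12 lay above, beside 18% of all genes, and the median was 0.51. Fads2, which desaturates polyunsaturated fatty acids, had 12.1, 15.2 and 17.6 CPM against 2.83, 0 and 1.52 (log2 fold change 3.35, adjusted p 0.106). Fasn, fatty acid synthase, had 81.6, 108 and 64.4 against 28.96, 35.3 and 63.5 (1.03, adjusted p 0.149). Srebf1, a regulator of the pathway, had 95.7 against 82.01 CPM (0.20).

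**Figure D3:**
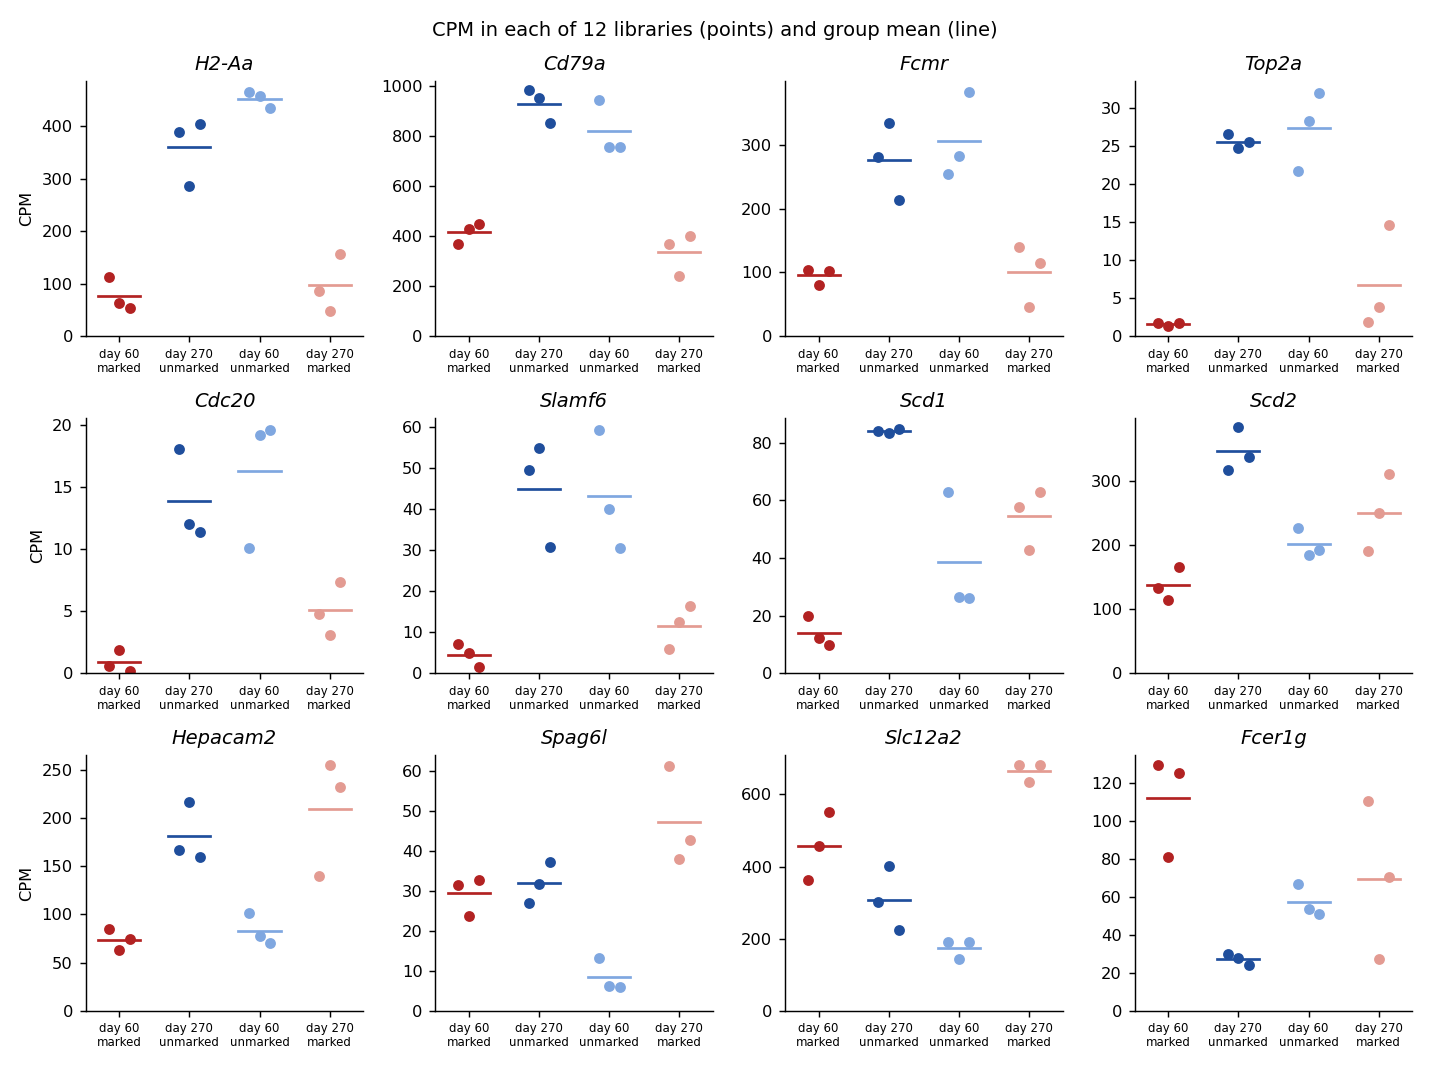
CPM (y axis, linear from 0) in each library as a point and the group mean as a line, for 12 genes in the 4 groups. H2-Aa, Cd79a, Fcmr, Top2a, Cdc20 and Slamf6 are higher in both unmarked groups, and Spag6l overlaps in the groups compared. Scd1, Scd2 and Hepacam2 are higher in late unmarked than early marked cells and also raised in late marked cells. For Top2a and Cdc20, late marked libraries lay above early marked ones too.

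The 1 gene called lower was Fcer1g (ENSMUSG00000058715, GRCm38 chromosome 1, 171229572 to 171234365), the signalling gamma chain shared by Fc receptors. It was at 30.1, 27.6 and 24.2 CPM in late unmarked and 129, 81.1 and 126 in early marked libraries. The means differed 4.10-fold, a log2 fold change of -1.99 ± 0.35 (adjusted p 0.0185). Between them lay the day 60 unmarked level, with 67.05, 53.8 and 51.2 CPM, and day 270 marked libraries had 111, 27.4 and 70.5. Leaving out any of the 6 libraries but day 60 marked library 2 ended the call (adjusted p up to 0.118). Of 12 Fc receptor genes, 1 was called higher (Fcmr) and 1 lower, beside 0.22% and 0.00787% of all genes. The gamma chain's partner Fcgr4 had 2.39, 1.54 and 1.42 against 10.8, 2.62 and 3.13 CPM, also without overlap (adjusted p 0.68). Fcer1g is also expressed by myeloid cells, mast cells and basophils. Markers of basophils, mast cells and eosinophils summed to 1122 to 1308 CPM in late unmarked and 1696 to 2213 in early marked libraries. Prg2, the eosinophil major basic protein, made up most of that sum, with 1119.97, 1055 and 1257 against 2202, 1892 and 1655 CPM. The other 5 of the 6 markers tested had a positive log2 fold change, as had 9306 of all 12704 genes. Summed neutrophil markers ran over 47.2 to 259 CPM in late unmarked and 1.94 to 880.3 in early marked libraries. Monocyte and macrophage markers ran over 351 to 733 and 276 to 459 CPM. For both lists the ranges of the groups overlapped. The part of such cells in the result was not tested.

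Further genes with all late unmarked libraries below the early marked ones did not pass the adjusted threshold and are given as values. Il13ra1, a receptor chain for interleukins 4 and 13, had 356, 339 and 321 CPM against 574, 466 and 625 (-0.70 ± 0.17, adjusted p 0.105, and 0.00354 under TMM). Hsd11b1, which regenerates active glucocorticoid, had 182, 178 and 199 against 316, 273 and 342 CPM (-0.73 ± 0.19, adjusted p 0.133, and 0.00467 under TMM). Both were called lower in 10 of the 24 alternatives, the same ones for each gene. These include TMM scaling, values adjusted for exonic length, edgeR, DESeq2, limma-voom and library quality weights. Both totals without Jchain and features resembling ribosomal RNA also gave the calls. So did the fit of only the 6 compared libraries and the fit without day 270 marked libraries 2 and 3. Cox6a2, a subunit of cytochrome oxidase, had 50.6, 34.3 and 36.4 against 76.4, 102 and 112 (-1.26 ± 0.35, adjusted p 0.152), and Fis1, which acts in mitochondrial fission, 236, 243 and 244 against 332, 321 and 345 (-0.46 ± 0.14, adjusted p 0.213). Adrb1, the beta 1 adrenergic receptor, had 6.17, 4.33 and 3.28 against 14.6, 19.4 and 19.4 CPM (-1.87 ± 0.52, adjusted p 0.149). Spns3, Mgst2, Enpp5 and Acrbp had log2 fold changes of -0.68 ± 0.20, -0.95 ± 0.27, -1.62 ± 0.43 and -1.90 ± 0.61, with adjusted p of 0.177, 0.151, 0.136 and 0.227.

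At day 60, 24 genes were called between unmarked and marked cells (0.189%), 19 higher in unmarked (0.15%) and 5 higher in marked cells (0.0394%): Spag6l, Mt2, Dsel, Slc12a2 and Nox1. Both comparisons use the same 3 day 60 marked libraries, so their shared calls are not independent and values are given side by side. Of the 19, 18 are named genes. The log2 fold changes (± SE) of the class II chains among them were H2-Aa (2.63 ± 0.32 at day 60, 2.28 ± 0.32 here), H2-Ab1 (1.73 ± 0.18 at day 60, 1.33 ± 0.18 here) and H2-Eb1 (1.48 ± 0.18 at day 60, 1.34 ± 0.18 here). Dividing-cell genes were Top2a (3.70 ± 0.54 at day 60, 3.62 ± 0.54 here), Cdc20 (3.74 ± 0.56 at day 60, 3.54 ± 0.56 here), Rrm2 (1.81 ± 0.28 at day 60, 1.69 ± 0.28 here), Ccnd2 (1.32 ± 0.21 at day 60, 1.82 ± 0.21 here), Ccna2 (4.39 ± 0.81 at day 60, 3.91 ± 0.81 here) and Tpx2 (3.39 ± 0.57 at day 60, 2.76 ± 0.57 here). Of the others, B cell and lymphocyte genes were Cd79a (0.97 ± 0.18 at day 60, 1.16 ± 0.18 here), Fcmr (1.66 ± 0.30 at day 60, 1.51 ± 0.30 here), Cd180 (1.43 ± 0.28 at day 60, 1.44 ± 0.28 here), Slamf6 (3.26 ± 0.48 at day 60, 3.33 ± 0.48 here), Ltb (3.42 ± 0.58 at day 60, 3.11 ± 0.58 here) and Cd2 (2.73 ± 0.53 at day 60, 1.67 ± 0.53 here). The remaining 3 were Napsa (1.30 ± 0.21 at day 60, 1.46 ± 0.21 here), Vim (1.92 ± 0.37 at day 60, 1.94 ± 0.37 here) and Coro1a (1.02 ± 0.17 at day 60, 0.90 ± 0.17 here). Ccna2, Tpx2 and Cd2 did not pass here (adjusted p 0.0532, 0.0529 and 0.222), nor did the 5 genes higher in marked cells, and loss of a call is no test of a difference between days.

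Spag6l, a component of cilia whose identifier is Spag6 in GENCODE M21 (how reads shared by these paralogs were counted is not given), had 31.6, 23.8 and 32.8 CPM in early marked and 13.2, 6.09 and 5.92 in day 60 unmarked libraries. Late unmarked libraries had 27.1, 31.8 and 37.4 CPM, overlapping the early marked ones (log2 fold change 0.12 ± 0.33, 95% interval -0.56 to 0.81). Mt2, a metallothionein that binds zinc, had 289, 383 and 488 CPM in early marked, 234, 174 and 118 in day 60 unmarked and 343, 456 and 316 in late unmarked libraries (-0.04 ± 0.23, 95% interval -0.52 to 0.43). Dsel, which acts on dermatan sulphate, had 46.9, 56.5 and 33.4 CPM in late unmarked and 62.9, 51.04 and 61.9 in early marked libraries (-0.38 ± 0.33, -1.08 to 0.31). For these 3 genes the interval includes 0. The sodium, potassium and chloride cotransporter Slc12a2 had 301, 400.2 and 224 CPM against 363, 458 and 551 (-0.59 ± 0.20, 95% interval -1.02 to -0.16, adjusted p 0.281, and 0.0358 under TMM). The NADPH oxidase Nox1 had 85.3, 126 and 87.1 against 129, 119.7 and 172 CPM (-0.50 ± 0.23, -0.99 to -0.01, adjusted p 0.451). Against day 60 unmarked cells, with 189.8, 144 and 191 CPM of Slc12a2 and 76.7, 44.7 and 45.6 of Nox1, the late unmarked libraries did not overlap and lay higher in both genes. By the direct comparison of late with day 60 unmarked cells, however, 0 genes were called by limma (0%), and 378 had an unadjusted p under 0.05.

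The comparison of day 60 unmarked with day 270 marked cells exchanges the days and shares no library with the comparison above. It uses the other sorted population of the same specimens and the same estimate of spread. It had 196 calls (1.54% of genes), 95 higher (0.748%) and 101 lower (0.795%) in unmarked cells. Of the 29 genes, 12 were called there in the same direction, which is 41.4% of the 29 and 6.12% of the 196: Atp1b1, Cd79a, Coro1a, Fam3c, Fcmr, H2-Aa, H2-Ab1, H2-Eb1, Napsa, Rrm2, Spn and Top2a. In 23 of the 29 the sign was the same. With the days exchanged, the log2 fold change of H2-Aa was 2.38 ± 0.32 (adjusted p 0.000861) and Cd79a of 1.30 ± 0.18 (adjusted p 0.00133). Hepacam2 was called in the opposite direction (-1.30 ± 0.23, adjusted p 0.0061). Scd1 (-0.61 ± 0.32, adjusted p 0.42) and Scd2 (-0.29 ± 0.19, adjusted p 0.523) had a negative sign and were not called. Ccnd2 (0.70 ± 0.21, adjusted p 0.122), Ets1 (0.16 ± 0.23, adjusted p 0.816) and Itgb7 (-0.09 ± 0.24, adjusted p 0.92) were not called either. The difference between both comparisons, which is the day difference added up over both populations, was called for 24 of 12704 genes.

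**Figure D4:**
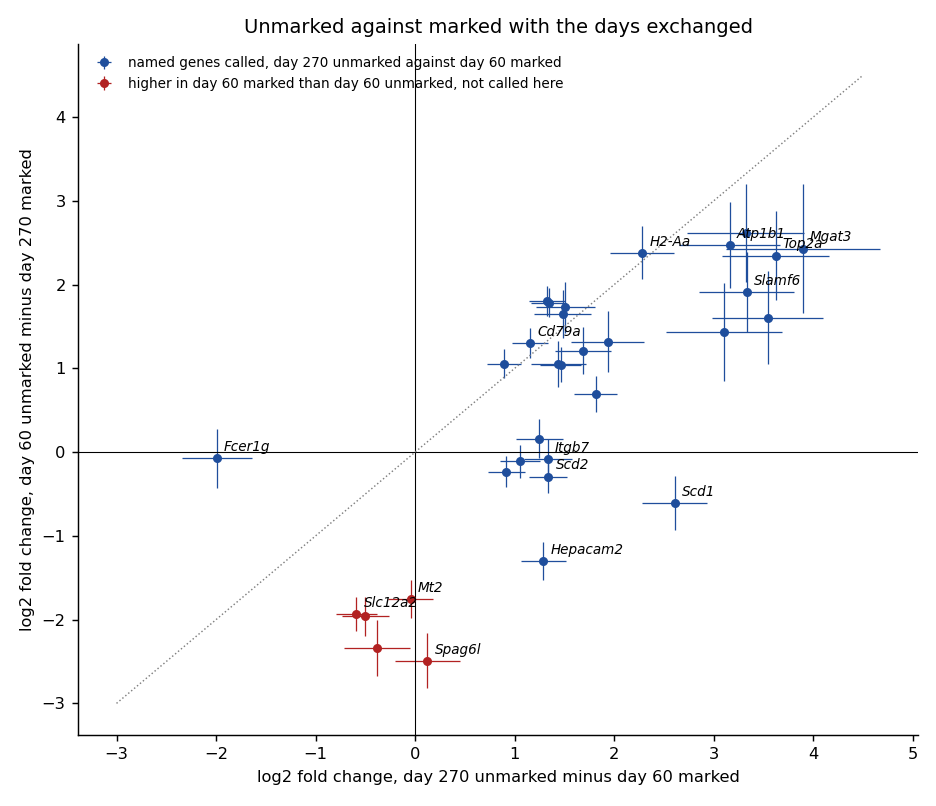
Log2 fold changes (points) with standard errors (lines) of day 270 unmarked minus day 60 marked (x axis) and of day 60 unmarked minus day 270 marked (y axis). Blue points are the 27 named called genes, red points the 5 genes higher in marked cells at day 60, and the dotted line marks equal values; H2-Aa lies near it at 2.28 and 2.38, while Scd1 and Hepacam2 lie below 0 on the y axis.

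Genes that define plasma cells were expressed in both groups, and none passed the adjusted threshold. Of 16 plasma cell identity genes, 0 were called, and the median was 0.11, or -0.13 under TMM. Higher at an unadjusted p under 0.05 were 4 and lower 0, beside 10.2% and 0.638% of all genes. Sdc1, the syndecan CD138 used to sort plasma cells, had 2342, 2138 and 1973 CPM against 2059, 1748 and 2222 (0.10 ± 0.17, 95% interval -0.25 to 0.45). Xbp1, the driver of secretory capacity, had 6043, 5949.7 and 5952 against 4744, 3931 and 4885 (0.41 ± 0.19, 95% interval 0.02 to 0.81, adjusted p 0.434), and Irf4 1045, 1061 and 804 against 603, 577 and 726 (0.61 ± 0.18, 0.22 to 0.99, adjusted p 0.194). Prdm1, the gene of Blimp-1, overlapped, with 249.6, 335 and 180.3 against 129, 150.3 and 185 CPM (0.69 ± 0.23, 95% interval 0.21 to 1.17, adjusted p 0.251). The unadjusted intervals of these 3 genes lay above 0. Mcl1, of which the genotype carries a floxed allele in all groups, had 527, 589.6 and 549.6 against 342, 392 and 508 CPM (0.44 ± 0.17, adjusted p 0.334). Its levels were 538, 483 and 539 CPM in day 60 unmarked and 417, 384 and 513 in day 270 marked libraries. The state of the allele in marked and unmarked cells was not measured. The survival receptor Tnfrsf17, known as BCMA, had 343, 359 and 332 against 405, 358 and 359 (-0.12 ± 0.16, 95% interval -0.46 to 0.23), and Bcl2 76.4, 79.2 and 65.6 against 50.2, 67.7 and 61.6 (0.31 ± 0.23). Cd93 and Ly6a, surface markers of bone marrow plasma cells, had log2 fold changes of 0.03 ± 0.20 and -0.07 ± 0.18. Epcam, an adhesion molecule, had 242, 301 and 218 against 118, 140.5 and 196 CPM (0.76 ± 0.22, adjusted p 0.163), and the death receptor Fas 16.8, 26.8 and 19.6 against 13.1, 13.7 and 8.40 (0.82 ± 0.52, adjusted p 0.588), with 1.44, 0 and 1.51 in day 270 marked cells.

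The lists of respiratory chain and ribosomal protein genes had medians below that of all genes. Of 81 nuclear genes of oxidative phosphorylation, 0 were called, and the median was -0.14. Higher at an unadjusted p under 0.05 was 1 and lower were 7, beside 10.2% and 0.638% of all genes. A negative log2 fold change was found in 57, beside 3398 of 12704 over all genes. Of the 81, 18 lay below and 7 above in all libraries, beside 3.03% and 18% of all genes. Of 72 ribosomal protein genes, 0 were called (0 higher and 1 lower at an unadjusted p under 0.05), with a median of -0.06. All 7 mitochondrially encoded genes tested were negative, with a median of -0.23 and 0 called (0 at an unadjusted p under 0.05). Short genes as a whole differed from long ones. In 5 equal groups of genes by exonic length, the median log2 fold change was 0.0257, 0.177, 0.278, 0.343 and 0.422 from the shortest to the longest. Genes of oxidative phosphorylation had a median exonic length of 1021 bases and ribosomal protein genes of 1048, against 3008 for all genes. With values adjusted for exonic length, an alternative added after the data were seen, the list medians were -0.19 and -0.13 beside -0.01 for all genes, and for the mitosis and class II lists 2.01 and 1.02. It gave 30 calls, 22 higher and 8 lower, of which 22 were among the 29. The level of short over long genes was highest in day 60 marked library 1 (0.604) and lowest in day 270 unmarked library 2 (-0.482), on the log2 scale and relative to the other libraries.

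**Figure D5:**
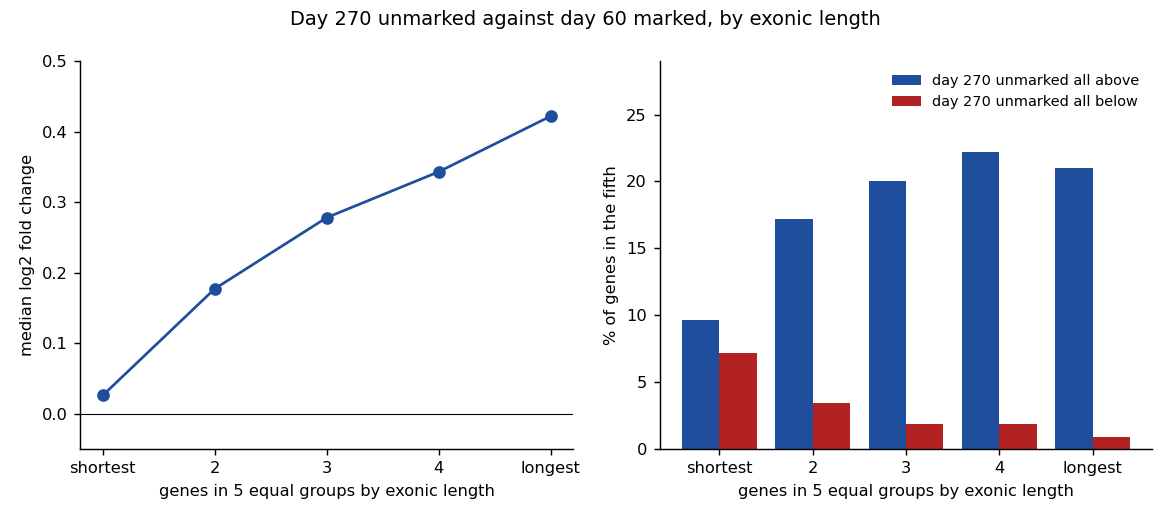
Left, median log2 fold change of day 270 unmarked over day 60 marked cells in 5 equal groups of genes by exonic length (x axis), from 0.0257 in the shortest to 0.422 in the longest. Right, the percentage of genes in each group with all 3 late unmarked libraries above (blue, 9.67% in the shortest and 21% in the longest) or below (red, 7.14% and 0.869%) the marked ones.

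Markers of other bone marrow cells moved in part with the groups. Of 18 monocyte and macrophage markers, 18 had a positive log2 fold change, beside 9306 of 12704 over all genes. None was called, and the median was 0.66. At an unadjusted p under 0.05, 4 were higher and 0 lower, beside 10.2% and 0.638% of all genes. Of T and NK cell markers, 8 of 22 could be tested, and 6 lay above in all libraries, beside 18% of all genes. Day 60 unmarked libraries summed to 10.6 to 44.4 CPM of these markers. The mouse coreceptor genes Cd4 and Cd8b1 had 6.44, 12.99 and 10.4 against 2.91, 2.38 and 0 CPM and 4.14, 4.33 and 11.3 against 3.24, 0.357 and 0. Slamf6, Ltb, Coro1a, Ets1, Cxcr3 and Ccr9 are expressed by T cells as well. Pro-B and pre-B markers summed to 526 to 654 and 493 to 538 CPM, plasmacytoid dendritic cell markers to 1502 to 1750.3 and 1136 to 1334, lists that include genes plasma cells also express. Erythroid markers summed to 38.4 to 173 and 111 to 355 CPM and megakaryocyte markers to 1.84 to 68.9 and 1.16 to 3.40, with Ppbp at 0, 33.6 and 6.41 CPM in the late unmarked libraries and 0 in the early marked ones. The part of such cells in the results was not tested.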

How the data were processed

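RNA-seq libraries of sorted mouse bone marrow plasma cells, 3 in each of 4 groups, were analysed from tables the authors deposited. Column-purified RNA went into TruSeq RNA libraries, per the labels' protocols. The build was GRCm38 and limma was used, per the submitters' processing notes; for aligner, counter and strand, the method is not given in the sources used here. Per the file headers, the main table gives CPM for 14219 genes in 12 libraries, beside the authors' log2 fold changes and p-values, which were not used. Reads recovered from CPM were whole within 0.05 for all 151342 values below 1000 reads and equalled the authors' deposited counts in all cells of a table of 230 genes. Totals were 7449468 to 15943547 reads over the table's genes, which include 0 immunoglobulin chains beside Jchain. Floors cover counting error only. Libraries of a group differed by more than counting error (chi-square per degree of freedom at least 14.84).

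The test was limma 3.58.1 (R 4.3.3, trended prior, two-sided) on log2(CPM + 0.5), over all 12 libraries with 1 coefficient per group and 8 residual degrees of freedom. A filter on recovered reads (filterByExpr, edgeR 4.0.16, minimum count 10 in 3 libraries) kept 12704 genes and removed 1515. A call is a Benjamini-Hochberg adjusted p under 0.05. Alternatives were TMM scaling, other totals, edgeR, DESeq2 1.42.0, limma-voom, other pseudocounts and filters, fewer libraries, blocks, quality weights, and 3 added after the data were seen. The scripts were tested on simulated data.

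Members, gene lists and tests were chosen with earlier results of these data known. Named genes are called genes without overlap between libraries and at least 1 CPM in the higher group (the 15 largest log2 fold changes each way, a direction with fewer than 10 filled to 10 by smallest p), called list members, genes called at day 60, and 24 genes kept whatever their values. Gene models without a name enter counts alone. Further called genes and list members were chosen as examples after their values were seen. Positions and exonic lengths (for 12666 genes, 99.7%) come from GENCODE M21, where 14165 identifiers were found. Date-like symbols left by a spreadsheet (19) were restored. Same-numbered libraries of the compared groups did not deviate together (correlations of -0.0759 to 0.0743 over 3 pairs), so replicate numbers were not taken as pairs.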

Additional observations from a re-analysis of the deposited data

Results flagged for a closer look

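For 6 named genes the difference depended on which day each population came from: the unmarked minus marked log2 fold change with day 270 unmarked and day 60 marked cells differed from that with day 60 unmarked and day 270 marked cells, by the test of that difference in limma (adjusted over 12704 genes). The difference of the fold changes equals the day difference summed over marked and unmarked cells, and for all 6 it was positive.

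Scd1 and Scd2, the fatty acid desaturases, differed by 3.21 (SE 0.46, adjusted p 0.00667) and 1.63 (SE 0.27, adjusted p 0.0153). Hepacam2 differed by 2.59 (SE 0.32, adjusted p 0.00222) and the adhesion molecule Epcam by 1.89 (SE 0.31, adjusted p 0.0153). Spag6l differed by 2.62 (SE 0.46, adjusted p 0.0199) and Mt2 by 1.71 (SE 0.32, adjusted p 0.0343). Epcam was at 162, 88.6 and 127 CPM in day 60 unmarked, 118, 140.5 and 196 in day 60 marked, 242, 301 and 218 in day 270 unmarked and 253, 275 and 273 in day 270 marked libraries. Every day 270 library of Epcam lay above every day 60 library. Spag6l and Mt2 were lowest in day 60 unmarked and highest in day 270 marked libraries.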

How the results depend on the processing

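The count of 29 calls (28 higher, 1 lower) stayed within 1.5 times under TMM, both reduced totals, edgeR, limma-voom, both pseudocounts, both filters, both blocks, the library-number term and the length adjustment. It moved to 142 (87 higher, 55 lower) with DESeq2, 130 (121 and 9) with only the 6 compared libraries, 1350 (1303 and 47) with library quality weights, 221 (213 and 8) without day 270 marked libraries 2 and 3, and 1 (1 and 0) outside the first set of library numbers. limma-voom gave 16 higher and 7 lower. The count of genes called lower was 5 under TMM and edgeR, 8 with values adjusted for exonic length, 3 with either reduced total, and 2 with the library-number term. With 1 library left out, calls ran from 10 to 35, with 10 to 35 higher and 0 to 1 lower. With the replicate number as a block, 33 genes were called (31 higher, 2 lower), 28 of them among the 29; the labels give the compared groups different specimens, and same-numbered libraries did not deviate together. The cause of these differences was not tested. None of the 27 named called genes reversed. With 3 libraries a group, the median standard error was 0.70 on the log2 scale for genes at 1 to 10 CPM and 0.19 at 100 CPM and over, which limits calls among low genes.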

Other observations

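Further gene groups held no called gene. Over all genes tested, 10.2% were higher and 0.638% lower at an unadjusted p under 0.05 by limma. Of 18 cytokine receptor and cytotoxic granule genes, 0 were called by limma (6 higher and 1 lower at an unadjusted p under 0.05), with a median log2 fold change of 0.52 beside 0.26 for all genes. Prf1, perforin, had 21.1, 12.4 and 10.3 CPM in day 270 unmarked and 2.27, 1.31 and 1.16 in day 60 marked libraries (adjusted p 0.104), and Il2ra, the alpha chain of the interleukin 2 receptor, 3.13, 5.58 and 2.31 against 0.324, 0 and 0 (adjusted p 0.0899). Both are expressed by T and NK cells, whose markers summed to 30.6 to 36.9 against 6.08 to 14.6 CPM, and the part of such cells was not tested. Of 21 immediate early genes, 0 were called (5 higher and 0 lower at an unadjusted p under 0.05): Egr3 had 4.33, 10.8 and 2.53 against 0, 0 and 0.626 CPM, and Egr2 6.63, 4.52 and 1.42 against 0.566, 1.31 and 0.983. Of 14 plasma cell survival receptors, 0 were called (3 higher and 0 lower at an unadjusted p under 0.05), and Il5ra, a receptor chain for interleukin 5, had 30.7, 35.4 and 22.2 against 10.4, 6.66 and 6.61 CPM without overlap (adjusted p 0.136).

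Of 25 plasma cell and B cell transcription factors, 0 were called (10 higher and 0 lower at an unadjusted p under 0.05), with a median of 0.49. The 3 largest log2 fold changes of the list were in genes also expressed by mature B cells: Aff3 had 5.89, 17.3 and 6.93 against 0.404, 1.07 and 2.41 CPM, Klf2 11.05, 10.4 and 7.52 against 1.86, 2.26 and 0.626, and Bach2, which represses Prdm1 in B cells, 6.35, 9.62 and 7.37 against 2.10, 5.71 and 0.358. Of 16 Bcl2 family genes, 0 were called (4 higher and 0 lower at an unadjusted p under 0.05), and the survival factor Bcl2l1 had 19.5, 26.4 and 32.5 against 7.60, 5.83 and 8.31 CPM (log2 fold change 1.77, adjusted p 0.067). Of 31 genes of the unfolded protein response, 0 were called (5 higher and 1 lower at an unadjusted p under 0.05), with a median of 0.20 and -0.04 under TMM. Of 36 proteasome genes and 31 interferon response genes, 0 were called, with medians of 0.12 and 0.40. At an unadjusted p under 0.05, 3 and 2 were higher, beside 10.2% of all genes. Examples were chosen after their values were seen.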
